A study of Homo sapiens with 12 samples.

Results

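NEAT1 and MALAT1 are neighbouring genes on chromosome 11 that encode abundant long noncoding RNAs kept in the nucleus. They were chosen by name, 2 genes of the 58961 used here, together with every peak of the 130 kb around them in hg38, a stretch that begins 22.8 kb before NEAT1 and ends 23.5 kb past MALAT1. It held 20 of the 54623 peaks of the RNaseH1-D210N list and 0 of the 1460 peaks of the REXO4-D386A list. The RNaseH1 peaks of highest fold stood at the starts of the 2 genes, and 15 of the 20 peaks touched neither gene. An unbroken stretch of 93.0% of NEAT1 and 1 of 82.0% of MALAT1 held no peak.

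NEAT1 RNA is the scaffold of paraspeckles, nuclear bodies built around the RNA and proteins such as NONO, SFPQ and PSPC1, and its long isoform is needed to form them. MALAT1 RNA gathers in nuclear speckles, which store splicing factors such as SR proteins. Both long RNAs end without a poly(A) tail: RNase P cuts each upstream of a tRNA-like element, and a triple helix protects the new end, while the element cut from MALAT1 becomes the small RNA mascRNA. R-loops are structures in which RNA pairs with 1 DNA strand and displaces the other. RNaseH1 degrades the RNA of such hybrids, and a nuclease-dead form can bind hybrids without removing them.

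The cells were U2OS, a human osteosarcoma line, carrying a doxycycline-switched transgene for RNaseH1-D210N or REXO4-D386A, both nuclease-dead. REXO4 belongs to a family of RNA exonucleases. The study's question was whether the 2 proteins are found at R-loops. Each line was sampled after about 60 h in 1 µg/ml doxycycline and also without the drug, with 2 ChIP libraries and 1 input per state, which makes 12 libraries. ChIP used anti-Flag beads on formaldehyde-fixed chromatin, and the labels name no deletion of either gene in any line. The values analysed were 2 peak lists, 1 per protein. The sources do not say whether a line is 1 clone, which libraries entered a list or whether replicates were pooled. The lists give a single value per peak, so no value below has a replicate error, no test was made, and intervals cover counting error only.

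The annotation gives MALAT1 a pair of starts, 1307 bp apart on the plus strand, and each had its own RNaseH1 peak. The windows of 300 bases around them, 250 before the start and 50 after it, are shown because the summits of these peaks lay inside them. The windows of the neighbouring lncRNA genes ENEMAL, whose window lay in a strong peak, and LINC02736, whose window touched none, are shown for comparison. Sequences are from RefSeq, GRCh38.p14, written 5′ to 3′ in the direction of the gene. Capitals mark the motif TATAAA, the GC box with the letters GGGCGG and the motif CCAAT. All were searched on both strands, and in ENEMAL 2 matches to the last motif, on opposite strands, stand side by side.
MALAT1 first start, chr11:65497488-65497787, plus strand: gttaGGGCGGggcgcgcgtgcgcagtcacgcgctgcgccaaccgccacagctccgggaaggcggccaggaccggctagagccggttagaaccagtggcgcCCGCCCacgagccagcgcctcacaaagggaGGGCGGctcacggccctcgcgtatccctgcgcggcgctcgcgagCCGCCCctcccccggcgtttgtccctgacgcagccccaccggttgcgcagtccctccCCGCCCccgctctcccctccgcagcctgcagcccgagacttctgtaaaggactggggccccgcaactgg
MALAT1 second start, chr11:65498795-65499094, plus strand: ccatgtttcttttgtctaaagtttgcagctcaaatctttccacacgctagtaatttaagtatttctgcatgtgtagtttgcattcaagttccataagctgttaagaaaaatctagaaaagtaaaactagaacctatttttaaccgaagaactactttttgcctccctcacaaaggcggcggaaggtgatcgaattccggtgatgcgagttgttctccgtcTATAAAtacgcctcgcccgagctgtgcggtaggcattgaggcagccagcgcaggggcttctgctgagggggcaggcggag
ENEMAL, chr11:65477438-65477737, minus strand: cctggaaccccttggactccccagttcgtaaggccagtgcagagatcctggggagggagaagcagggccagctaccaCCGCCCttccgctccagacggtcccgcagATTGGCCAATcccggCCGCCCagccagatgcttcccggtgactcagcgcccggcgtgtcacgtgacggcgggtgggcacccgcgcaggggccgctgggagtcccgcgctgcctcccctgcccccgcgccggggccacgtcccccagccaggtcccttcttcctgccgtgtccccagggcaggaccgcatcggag
LINC02736, chr11:65488037-65488336, minus strand: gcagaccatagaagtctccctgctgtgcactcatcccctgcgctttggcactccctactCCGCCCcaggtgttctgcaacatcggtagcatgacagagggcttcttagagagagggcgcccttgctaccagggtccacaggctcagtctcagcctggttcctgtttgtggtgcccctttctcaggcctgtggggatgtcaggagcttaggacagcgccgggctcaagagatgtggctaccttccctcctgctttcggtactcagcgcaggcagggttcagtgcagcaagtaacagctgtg

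The windows at the 2 starts of MALAT1 were unlike in sequence. The first had a GC content of 73.7% and 5 matches to GGGCGG, and no TATAAA. The second had a GC content of 46.0%, no GGGCGG, and TATAAA beginning 30 bases before the start. Over all 35116 windows of the RefSeq table the median GC content was 58.7%, 45.0% held GGGCGG and 11.5% held TATAAA. Over the 15624 windows touched by an RNaseH1 peak the median was 67.3%, 75.8% held GGGCGG and 4.04% held TATAAA. Of those 15624 windows, 189 (1.21%) had a GC content as low as that of the second start or lower. The excess of G over C, as a share of both together, was -0.13 at the first start and 0.06 at the second, against a median of 0.01 over all windows. NEAT1 is named here without a sequence. A match is a run of letters and not evidence that a factor binds there.

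The strongest RNaseH1 peak of the locus lay at the second start of MALAT1. It ran from 65498799 to 65499320 with a fold enrichment of 9.48 (95% interval 8.18 to 10.9), the authors' deposited ratio between the pileup at the summit and its expectation, with 1 added to each. The fold rested on 189 fragments against an expected 19.05. Its summit was 11 bp upstream of the start, at base 240 of the window shown, counted from the 5′ end. In the whole list it ranked 215 by fold (percentile 99.6) and 249 by q, with a −log10 q of 112.6. Of all 35116 annotated starts, 6.35% had an RNaseH1 summit within 50 bp, and the median fold of those peaks was 3.27. Of these 2231 starts, 7 (0.314%) had a peak of higher fold.

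The first start of MALAT1 had a weaker peak, from 65497312 to 65497980, with a fold of 5.86 (4.81 to 7.08) from 106 fragments against an expected 17.3. Its interval did not overlap that of the second start. Its summit was 184 bp upstream of the start, at base 67 of the window, and it ranked 656 by fold. Between the 2 starts another peak, from 65498252 to 65498566, had a fold of 3.04 (2.19 to 4.11) from 40 fragments. That fold is close to the list's median of 3.07. RNaseH1 peaks touched 44.5% of all promoter windows, so a peak at a start is common.

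NEAT1 had a single wide peak over its start. It ran from 65421944 to 65423581, 854 bp before the gene's boundary and 784 bp into the gene. At 1638 bp it was wider than 98.5% of the list's peaks. The fold was 7.84 (6.69 to 9.14) from 162 fragments against an expected 19.8, and the summit lay 14 bp inside the boundary. By fold it ranked 302 and by q 346, with a −log10 q of 84.2. The interval overlapped those of both MALAT1 starts. Overlap alone does not settle the order of NEAT1 and either of them, and the differences were not tested. The RefSeq gene table gives no strand; NEAT1 is transcribed in the same direction as MALAT1, so its low boundary is its start.

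**Figure D1:**
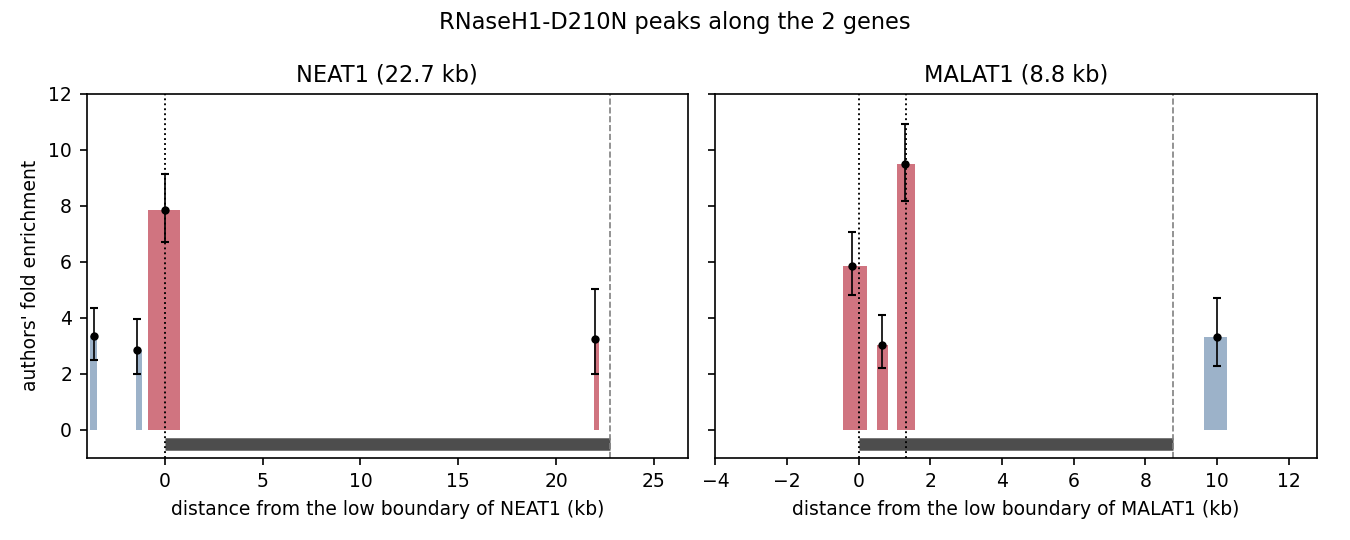
RNaseH1-D210N peaks along NEAT1 (left) and MALAT1 (right), with distance from the low boundary of each gene in kb on the x axis and the authors' fold enrichment on the y axis. Shaded blocks are peak extents, red where they touch the named gene and blue elsewhere; dots are summits with 95% counting intervals; dotted lines are starts, the dashed line is the gene's end and the grey bar is the gene. The highest block of each gene stands at a start (7.84 in NEAT1, 9.48 in MALAT1), and 1 unbroken stretch of each gene, 93.0% of NEAT1 and 82.0% of MALAT1, holds no block.

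Toward the 3′ end the genes differed in where the nearest peak lay. In NEAT1 a small peak inside the gene, from 65444732 to 65444986, ended 554 bp before the gene's end and lay 175 bp beyond MIR612, a microRNA gene within NEAT1. Its fold was 3.23 (1.98 to 5.01) from 18 fragments against an expected 4.88, and its −log10 q was 3.57. In MALAT1 no peak touched the 3′ part of the gene, nor the stretch that yields mascRNA (65506117 to 65506174). The next peak, from 65507374 to 65508008, began 858 bp past the gene's end, with a fold of 3.32 (2.26 to 4.72) from 29 fragments. It covered the 59 bp of TALAM1, a transcript antisense to MALAT1, that lie at its high boundary, which is where an antisense transcript begins, and its summit lay 316 bp beyond. By fold these peaks stood at percentiles 58.5 and 64.5 of the list.

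With 1 kb allowed on either side, all 4 boundaries of the 2 genes had an RNaseH1 peak and none had a REXO4 peak. For comparison, 4.43% of 18010 lncRNA genes had an RNaseH1 peak near both boundaries and 27.2% near at least 1. For REXO4, 1.26% of lncRNA genes had a peak near a boundary.

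Most of each gene body was outside peaks. Peaks covered 1039 of the 22743 bp of NEAT1 (4.57%) and 1080 of the 8779 bp of MALAT1 (12.3%). The longest stretch without a peak ran 21.15 kb in NEAT1, from 65423582 to 65444731. In MALAT1 it ran 7.196 kb, from 65499321 to the gene's end at 65506516. The interior of NEAT1, leaving out 1 kb at each end, had 0 bp inside a peak over 20.743 kb. That of MALAT1 had 522 bp, all in the peak at the second start. An empty interior was common: among genes with a peak and of 0.5 to 2 times the length, 37.3% had none for NEAT1's length class and 49.4% for that of MALAT1.

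Against protein-coding and lncRNA genes of 0.5 to 2 times their length, both genes ranked higher by fold than by coverage. For NEAT1 there were 12490 such genes, of which 60.1% had an RNaseH1 peak in the gene. Of all of them, 16.7% had a larger covered share and 0.448% a higher fold. For MALAT1 there were 12351, of which 46.9% had a peak. Of those 12351, 8.87% had a larger covered share and 0.194% a higher fold. The median covered share of genes with a peak was 2.84% in the class of NEAT1 and 6.04% in the class of MALAT1. Among lncRNA genes alone, 33.0% had an RNaseH1 peak in the gene, and MALAT1 ranked 37 and NEAT1 52 by highest fold of all 18010.

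**Figure D2:**
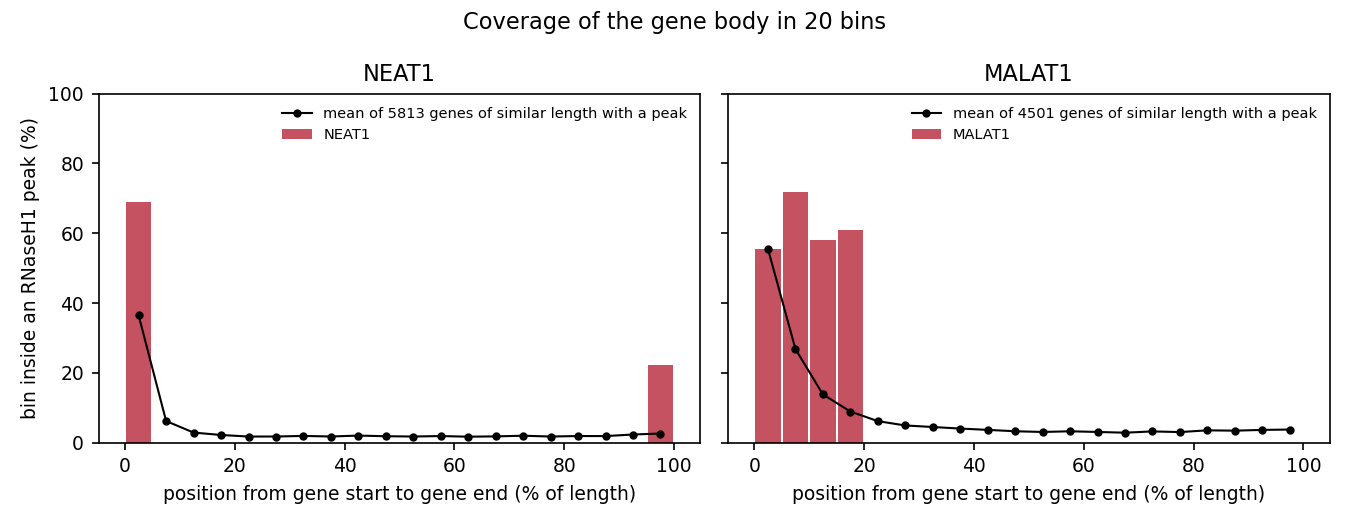
Share of each of 20 equal bins inside RNaseH1-D210N peaks, from gene start to gene end (x axis, percent of length; y axis, percent of the bin), for NEAT1 and MALAT1 as red bars. The black line is the mean of genes of similar length that have a peak and a known strand (5813 and 4501 genes). NEAT1 has peaks in its first and last bins only (69.0% and 22.4%), and MALAT1 in its first 4 bins (55.5%, 71.8%, 58.1% and 60.8%).

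In the first of 20 bins, 69.0% of NEAT1 was inside a peak, against a mean of 36.5% over 5813 genes of similar length. Its last bin had 22.4%, against 2.66%. In MALAT1 the first bin, at 55.5%, was at the mean of 55.5% over 4501 genes. Its next 3 bins were higher, at 71.8%, 58.1% and 60.8%, against 26.9%, 13.9% and 8.96%, and the middle peak and that of the second start fall there.

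The genes whose 20-bin profile was most like that of NEAT1 were PCDHGC3, ANAPC7, FKBP14-AS1, U2AF2 and TEN1, all with a Pearson correlation of 1.00 over the 20 bins among 4555 genes compared. For MALAT1 they were LINC00847, CCDC71L, EOGT-DT, SYNGR2 and GLIDR, with correlations of 0.99 among 2850 genes. The genes compared were of 0.5 to 2 times the member's length and had at least 0.5 times its covered share. The values describe likeness of shape and were chosen as the highest. NEAT1 has peaks in its first and last bins only, so a correlation this high needs only peaks there in a similar proportion. For TEN1 and GLIDR no strand was known, and the better of both directions was taken. All 10 had lower folds than the gene they resembled: 2.46 to 4.70 in the first group and 2.61 to 4.09 in the second. Of all genes of similar length only 0.448% had a higher fold than NEAT1 and 0.194% than MALAT1. A lower fold was therefore likely for any gene picked.

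**Figure D3:**
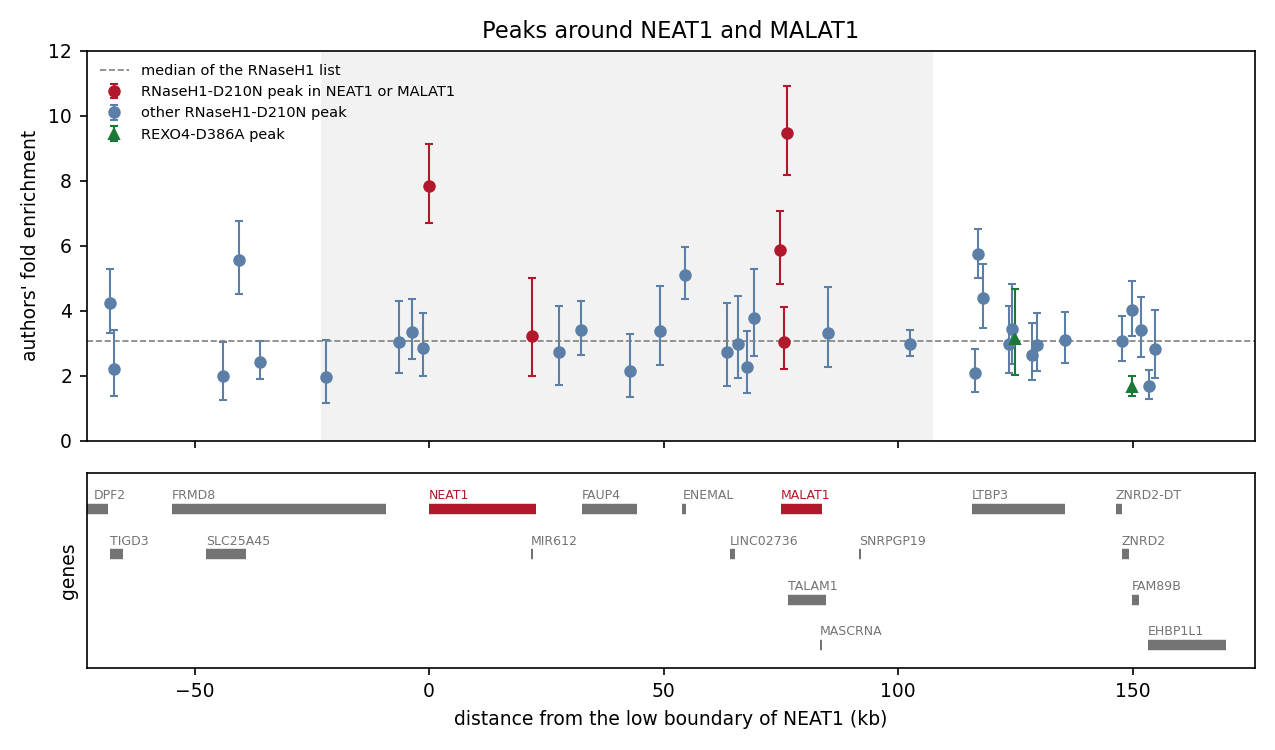
Fold enrichment of all peaks in 230 kb around both genes by distance of the summit from the low boundary of NEAT1 (x axis, kb), with 95% counting intervals, above annotated genes. Red points are the 5 RNaseH1-D210N peaks that touch NEAT1 or MALAT1, blue points other RNaseH1-D210N peaks and green triangles REXO4-D386A peaks; grey shading marks the 130 kb locus, and the dashed line is the median of the RNaseH1 list (3.07). The 3 highest points are red, and the 2 triangles lie right of the shading.

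The 130 kb around both genes were dense in RNaseH1 peaks. Of the 20 peaks, 5 touched NEAT1 or MALAT1 and 15 did not. The 5 had folds of 3.04 to 9.48, and the other 15 had a median of 2.99 and a highest value of 5.10. Of the 20, 10 had a fold above the list's median. When the genome was divided into stretches of the same length that hold a gene, 100 of 20460 (0.489%) had 20 or more RNaseH1 summits, and the median stretch had 1. On chromosome 11 it was 3 of 948. The limits of the locus were set around these genes, so the count is a description.

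The 52.198 kb between the genes held 9 RNaseH1 peaks with folds of 2.14 to 5.10, 6 of them outside any annotated gene. The strongest, from 65476945 to 65477778, covered most of ENEMAL, a lncRNA gene of 711 bp. Its fold was 5.10 (4.35 to 5.96) from 159 fragments against an expected 30.4, and its summit lay 46 bp inside the gene's start. FAUP4, a transcribed pseudogene, had a peak of fold 3.39 (2.63 to 4.31) whose summit stood 74 bp outside its low boundary, and a weaker one inside of 2.14. LINC02736 had no peak in the gene. The nearest summit lay 504 bp upstream of its start, with a fold of 2.99 (1.92 to 4.46). SNRPGP19, a pseudogene beyond MALAT1, had none. Within 10 kb upstream of NEAT1 there were 3 more peaks, with folds of 3.03, 3.34 and 2.84, their summits 6362, 3637 and 1407 bp before the gene.

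The coding neighbours FRMD8 and LTBP3 had lower highest folds than NEAT1, and LTBP3 had more coverage. The counting interval of FRMD8's highest fold overlapped that of NEAT1 (6.69 to 9.14), and that of LTBP3 did not. FRMD8, a partner of the iRhom proteins, had no RNaseH1 peak within 1 kb of either boundary of its span in the gene table. The start that the promoter table gives for it lies well inside that span, and a summit 11 bp past it had a fold of 2.43 (1.90 to 3.07). A stronger peak in FRMD8, of 5.55 (4.51 to 6.76), also lies in SLC25A45, a mitochondrial carrier gene whose span FRMD8's overlaps. LTBP3, which encodes a binding protein of latent TGF-beta, is 19801 bp long, close to the 22743 bp of NEAT1. NEAT1 had 2 peaks and a covered share of 4.57%, against 8 peaks and 23.9% in LTBP3, a ratio of 5.23 in favour of LTBP3. The highest fold was 7.84 in NEAT1 and 5.73 (5.02 to 6.52) in LTBP3. By q the order was the other way. That peak of LTBP3, from 230 fragments, ranked 310 with a −log10 q of 91.6, and NEAT1's start peak ranked 346 with 84.2. The highest folds of FRMD8 and LTBP3 stood at percentiles 98.4 and 98.6 of the list, near the 98.8 of MALAT1's first start.

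**Figure D4:**
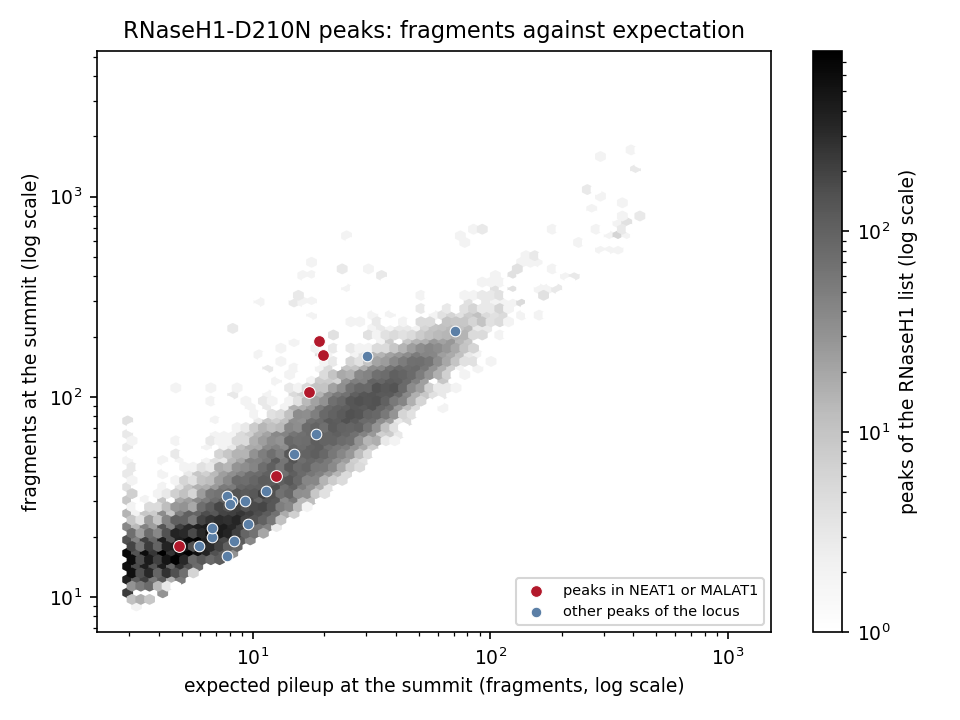
Fragments at the summit (y axis, log scale) against the expected pileup (x axis, log scale) for all 54623 RNaseH1-D210N peaks in grey hexagons, with peaks in NEAT1 or MALAT1 in red and other peaks of the locus in blue. The 3 red points with 106, 162 and 189 fragments lie at or above the upper edge of the dense grey area at expected pileups of 17.3 to 19.8, and the red point at 18 fragments lies among the list's low peaks.

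Depth differed along the locus. The 3 peaks at starts had expected pileups of 17.3, 19.8 and 19.05, against a median of 9.37 over the 20 peaks and 7.14 over the list. The peak near the end of NEAT1 had 4.88, the lowest of the locus. Among peaks of similar expected pileup (20% of the list each), the peaks of MALAT1's second start, NEAT1's start and MALAT1's first start were at percentiles 99.3, 99.1 and 98.1 of fold. Over the whole list they were at 99.6, 99.4 and 98.8. Of the 20 peaks, 2 had a −log10 q under 2, 1 in FRMD8 of fold 1.95 and 1 in FAUP4 of fold 2.14, and neither touched NEAT1 or MALAT1.

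REXO4 peaks were absent from the list throughout the locus. None touched NEAT1, MALAT1 or the other 9 annotated genes of the locus. The nearest REXO4 peak below, from 64802941 to 64803405, had its summit 619.6 kb from the start of NEAT1. The nearest above, from 65547604 to 65547949 inside LTBP3, had its summit 41.3 kb past the end of MALAT1. It had a fold of 3.12 (2.01 to 4.66) from 22 fragments and no RNaseH1 peak under it. The next, at FAM89B, had a fold of 1.66 (1.37 to 2.00) from 111 fragments against an expected 66.3, and overlapped an RNaseH1 peak of fold 4.01. The span of 744.2 kb without a REXO4 peak held 75 RNaseH1 peaks.

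REXO4 peaks were sparse along the whole chromosome. The spacing of summits on chromosome 11, with 80 REXO4 peaks, had a median of 705.5 kb, and 36 of 79 spacings were at least as long as the one around NEAT1 and MALAT1. Of lncRNA genes, 1.01% had a REXO4 peak in the gene. In the length classes of NEAT1 and MALAT1 it was 2.76% and 1.77%. Of all RNaseH1 peaks, 2.03% overlapped a REXO4 peak. Among the 991 with a −log10 q at least that of MALAT1's first start it was 13.3%, and among the 656 of at least its fold 4.57%. Of the 100 stretches with as many RNaseH1 peaks as this locus, 57 held no REXO4 peak either. REXO4 peaks were thus more common in such dense stretches than over all 20460 stretches, of which 5.63% held one. A missing row means that no peak passed the authors' threshold; the REXO4 pileup at NEAT1 and MALAT1 was not used here, so a fold below that threshold was not tested.

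Genes of the proteins that work with these RNAs had RNaseH1 peaks at their boundaries throughout, at ordinary folds. Of 20 genes for paraspeckle proteins, 20 had an RNaseH1 peak within 1 kb of a boundary and 0 a REXO4 peak. Over all 19866 protein-coding genes the shares were 67.1% and 3.82%. The median of their highest fold was 2.78, against 3.17 over all protein-coding genes with such a peak. The highest were HNRNPK (3.96) and TARDBP (3.59), which encode RNA-binding proteins, followed by the cold-shock protein gene RBM3 (3.40) and EWSR1 (3.26). NONO, SFPQ and PSPC1, whose products form the core of paraspeckles, had 2.01, 2.49 and 2.48; they were named for that role after the values were seen.

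Of 20 genes for speckle proteins and for factors that process or bind MALAT1, 20 had an RNaseH1 peak and 0 a REXO4 peak. The shares over all 19866 protein-coding genes were 67.1% and 3.82%. The list's median fold was 3.12, against 3.17 over all protein-coding genes with such a peak. RNPS1, a splicing activator, had 5.70, SRSF1, an SR protein, 4.16, RPP30, a subunit of RNase P, 4.08 and SRSF7, another SR protein, 3.94. ELAC2, the RNase Z that trims the 3′ end of mascRNA, had 2.53, and METTL16, which binds the MALAT1 triple helix, 2.29; both were named for their roles after the values were seen. Every one of these 40 folds was below the 5.86 of MALAT1's first start and the 7.84 of NEAT1. Of all 54623 RNaseH1 peaks only 656 had a fold of at least that 5.86, so the count says little about these genes. That of RNPS1 lay inside the counting interval of MALAT1's first start (4.81 to 7.08).

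Of 20 other abundant or nuclear lncRNA genes, 17 had an RNaseH1 peak within 1 kb of a boundary and 0 a REXO4 peak. Over all 18010 lncRNA genes the shares were 27.2% and 1.26%. Their median fold was 2.95, against 3.18 over all lncRNA genes with such a peak. JPX, a regulator of X inactivation, came closest to NEAT1, at 7.75. It was followed by GAS5, a host of snoRNAs, at 4.71, FTX, also of the X inactivation region, at 4.46 and MEG3, an imprinted lncRNA, at 4.23. CYTOR, H19 and OIP5-AS1 had no peak near a boundary, though each had a peak inside the gene. The RefSeq table classes 1 of the 20, TUG1, as protein-coding. KCNQ1OT1, a long nuclear RNA that silences its imprinted neighbours, had 2.66 and was named for that role after the values were seen.

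**Figure D5:**
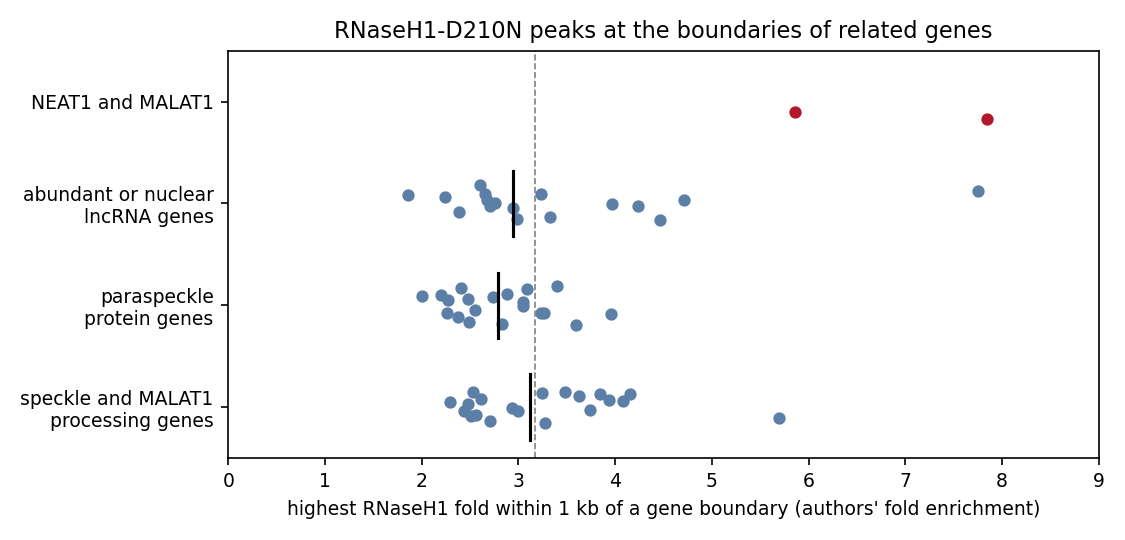
Highest RNaseH1-D210N fold within 1 kb of a gene boundary (x axis, the authors' fold enrichment) for NEAT1 and MALAT1 in red and for the genes of 3 lists in blue, 1 dot per gene with such a peak. Black bars are list medians (2.95, 2.78 and 3.12 from top to bottom) and the dashed line is the median of 3.17 over all protein-coding genes with such a peak. NEAT1 (7.84) and MALAT1 (5.86 by this measure, which leaves out its second start) lie to the right of nearly all list genes.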

How the data were processed

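The sources were the labels of 12 libraries in 8 groups and 2 peak lists. The submitters' processing notes name hg38 as build and, in no stated order, MACS2 2.1.0.20150731, deepTools 3.5.1, SAMtools 1.17, HISAT2 2.2.1, Trim Galore 0.6.10 and Cufflinks. Control, pooling and threshold are not stated there. Each peak's name holds the tag ChIPseq2, and what it stands for is not stated. The largest q was 0.198 in the RNaseH1 list and 0.179 in the REXO4 list. Fold enrichment is the authors' deposited ratio per peak, and −log10 p and −log10 q are the authors' deposited values. Folds were compared only within a list.

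From each peak's fold and p, fragment counts at the summit were recovered as whole numbers under MACS2's Poisson formula, in which a fold is (fragments + 1) / (expected + 1), within 0.05 fragments, for all 54623 RNaseH1 and 1459 of 1460 REXO4 peaks. Exact Poisson intervals (95%) of the fragments give the intervals of folds and leave out the error of the expected pileup. Gene spans came from RefSeq (GRCh38.p14), where 831 of 59792 genes were left out as unplaced or out of order. An overlap was at least 1 bp. Motif matches and the comparison of 20-bin profiles are descriptions. The steps were checked on simulated data. The members and gene lists were chosen with earlier results of these data known. Genes were named by a fixed rule: all genes of the locus (1 is not reported here), the nearest coding gene on each side, the 4 highest folds per list, members without a peak where 5 or fewer, and the 5 most alike profiles. Scripts ran in Python 3.11.15 with pandas 2.3.3, matplotlib 3.10.9, SciPy 1.17.1 and NumPy 2.4.6. Alternatives changed the q threshold, the overlap rule, the window, the peak width and the genes compared.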

Additional observations from a re-analysis of the deposited data

How the results depend on the processing

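Over 74 alternatives to 22 results, 20 moved, none reversed and 54 did neither. Here a count moved if it changed by over 1.5 times, and a share or percentile if it left its 95% binomial interval, which is narrow for percentiles over the whole list. The 0 REXO4 peaks in both genes and at all 3 gene lists held under every alternative run. Alternatives that removed peaks or narrowed the overlap rule or the window could not raise a count of 0. For the 2 genes, extension by 1 kb could not either, as the nearest REXO4 summit lay 41.3 kb past the end of MALAT1. Only the wider window at the gene lists could have changed a 0, and it did not. The values fixed in this way are counted among the 54. With only peaks of −log10 q of at least 5, NEAT1 kept 1 of 2 RNaseH1 peaks, that at its start, and a covered share of 3.45%. Requiring at least 50% of the peak inside the gene kept the other one, the small peak near the gene's end. The start peak, with 784 of its 1638 bp inside, was then left out. Within the bound of 1.5 times, MALAT1 had 2 peaks in place of 3 with the summit or 50% of the peak inside the gene. It had 4 with the gene extended by 1 kb. With a window of 0.5 kb, each gene had a peak at 1 of 2 boundaries, its start, and 14 in place of 17 of the other lncRNA genes had one. With peaks cut to 300 bp at the summit, covered shares were 2.04% for NEAT1 and 6.83% for MALAT1. The share of similar-sized genes with more RNaseH1 coverage was then 23.1% and 5.72%; it was 6.47% and 4.50% among lncRNA genes only, and 6.51% for MALAT1 at a −log10 q of at least 5. The same share for REXO4, where any covered gene exceeds 0, was 1.05% and 0.769% among lncRNA genes, and 1.43% and 0.939% at that q. The percentile of the highest fold was 99.4 for NEAT1 and 99.5 for MALAT1 by q, and 99.1 and 99.3 among peaks of similar expected pileup. The cause of these shifts was not tested. No paired analysis was possible because the peak lists hold no value per library. With no replicate values, a peak of 18 fragments such as that near the end of NEAT1 has a wide interval, and the variation between libraries is unknown.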

Other observations

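Of the 2231 annotated starts with an RNaseH1 summit within 50 bp, 95 had TATAAA in their window, as the second start of MALAT1 does (4.26%). This share was close to the 4.04% over all windows touched by an RNaseH1 peak, and it was 11.5% over all 35116 windows. The median fold of the nearest peak was 3.19 at those 95 starts and 3.27 at the other 2136.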
